A study of Mus musculus with 18 samples.

Results

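Medulloblastomas of adult mice were compared with normal granule neuron progenitors (GNPs) of mouse cerebellum at postnatal day 7, by the genomic positions of 2 nuclear factor I proteins, NFIA and NFIB. The comparison used 12 of the 18 libraries of the series, 6 from tumors and 6 from GNPs, chosen by the stage in the sample labels. Each side had 3 preparations with 1 NFIA and 1 NFIB library each, and both libraries of a preparation were summed. Both cell types were isolated on a Percoll gradient, and 100000 cells went into each library. The tumors came from a genetically engineered mouse model whose alleles, and whether the GNPs carried them, are not given in the sources used here, so that stage, age and any difference in genotype cannot be told apart. Nothing in the labels says that the preparations came from separate animals, and the spread that p-values measure may thus be technical. The third GNP preparation is labelled as merged. The 6 libraries of hyperplasia at postnatal day 28 entered the shared estimate of spread and are given only as an intermediate stage. They share both GNP title dates and no tumor date, so that their likeness to GNPs and a shared date cannot be told apart.

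NFI proteins are DNA-binding factors that recognise a palindrome of TTGGC and its mirror image GCCAA, as dimers of any of the family members NFIA, NFIB, NFIC and NFIX. In the developing cerebellum they act in granule neuron precursors and promote their maturation into granule neurons. GNPs divide in the outer layer of the young cerebellum in response to the ligand Sonic hedgehog (SHH), and SHH-type medulloblastoma is thought to arise from them when the pathway stays active. The assay, CUT&Tag, lets an antibody bring a transposase to a chromatin-bound protein, so that the DNA around the protein is cut and sequenced.

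What the authors deposited were lists of summits of peaks, single positions scored by the peak caller of the authors with a −log10 p-value. Tumor libraries listed 49948 to 385466 summits and GNP libraries 55925 to 159474, and the read depth behind them is unknown. The 30000 highest-scoring summits on chromosomes 1 to 19 of each library were therefore compared, so that every library had the same number and a value is a share of a fixed total, not an amount of binding. The first tumor preparation had the smallest share of its top summits in regions shared with other libraries: 74.8%, 88.3% and 92.0% in the tumor preparations, against 85.4%, 90.0% and 94.5% in the GNP preparations. In the NFIA library of the second hyperplasia preparation this share was 58.2%, against 84.8% to 94.3% in the other hyperplasia libraries. Of its 30000 highest summits, 20.4% were tied at the last score. The title dates of tumor and GNP preparations were all different, so that date and stage cannot be told apart. No summit list was reduced to tumor or progenitor cells by any other means, and a change in the mix of cells and a change within cells cannot be told apart.

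Of the 19 chromosomes, chromosome 6 differed most between tumors and GNPs in its share of summits. Chromosome 6 held 7.13%, 7.18% and 6.89% of the top summits in the tumor preparations, against 5.16%, 5.26% and 5.32% in the GNP preparations. No tumor value overlapped a GNP value, and the ratio of the means was 1.35 (7.07 ± 0.154% in tumors and 5.25 ± 0.0791% in GNPs, SD, n = 3 each). The exact permutation p was 0.1, two-sided, which is the smallest that 3 preparations against 3 allow, and 0.271 after adjustment over the 19 chromosomes. In all, 7 of the 19 chromosomes reached this smallest p without overlap. Those besides chromosome 6 were chromosomes 4, 5, 7, 9, 11 and 19, all with lower shares in tumors, and the shares add up to a fixed total. By ratio, the next largest departure was that of chromosome 19, at 2.45 ± 0.00948% in tumors and 2.67 ± 0.0126% in GNPs, a ratio of 0.917. In percentage points it was that of chromosome 7, at 6.60 ± 0.00918% in tumors and 6.91 ± 0.0443% in GNPs.

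The excess of tumor summits on chromosome 6 was present in 3 ranges of rank within the 30000 highest summits. Among ranks 1 to 5000 of each list, chromosome 6 held 7.80%, 8.52% and 8.28% in tumors, against 4.71%, 5.10% and 5.41% in GNPs, a ratio of 1.62. Among ranks 5001 to 15000 the shares were 6.92 ± 0.122% in tumors and 5.16 ± 0.0153% in GNPs, a ratio of 1.34, and among ranks 15001 to 30000 they were 6.79 ± 0.293% and 5.36 ± 0.0549%, a ratio of 1.27. The groups did not overlap in any of the 3 ranges (exact permutation p = 0.1 in each, the smallest possible). The ranges were chosen after the shares of the whole chromosome had been seen.

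**Figure D1:**
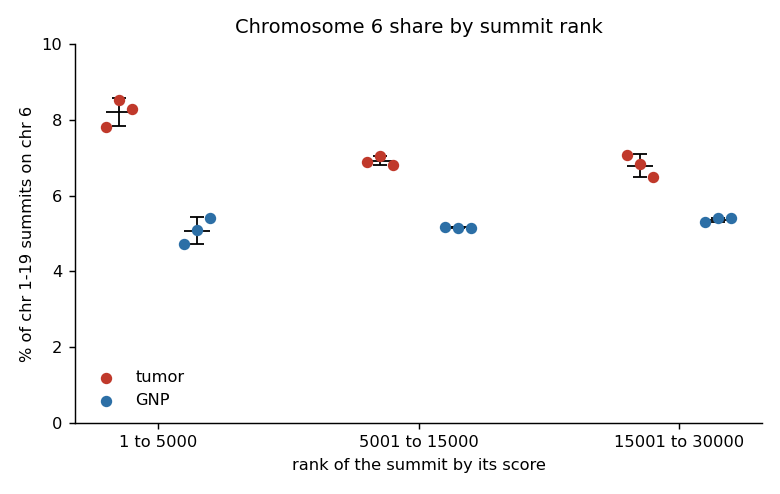
Percentage of the summits of chromosomes 1 to 19 that lie on chromosome 6 (vertical axis), for 3 ranges of summit rank, in tumors (red) and GNPs (blue). Points are the 3 preparations of each stage, horizontal marks their means and bars their SD. All tumor preparations lie above all GNP preparations in each range, and the ratio of the means is 1.62 in ranks 1 to 5000 and 1.27 in ranks 15001 to 30000.

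The excess was spread along the whole chromosome. In all 15 blocks of 10 Mb, each tumor preparation had more summits than each GNP preparation. The ratio of the means ran from 1.19 in the block at 70 to 80 Mb to 1.70 in the block at 0 to 10 Mb. The block at 0 to 10 Mb held 142, 144 and 127 summits in tumors, against 81, 73 and 89 in GNPs. The 3 blocks with the fewest GNP summits, at 60 to 70, 0 to 10 and 10 to 20 Mb, had ratios of 1.67, 1.70 and 1.59. The 3 with the most, at 90 to 100, 80 to 90 and 110 to 120 Mb, had ratios of 1.28, 1.23 and 1.32. Hyperplasia over GNPs gave ratios between 0.960 and 1.21 in the same blocks.

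**Figure D2:**
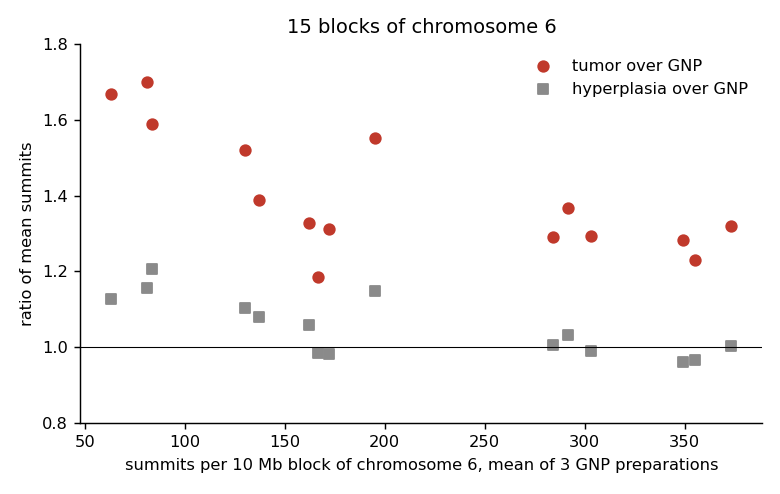
Ratio of mean summits in each of the 15 blocks of 10 Mb of chromosome 6 (vertical axis) against the mean number of GNP summits in the block (horizontal axis). Circles give tumors over GNPs (1.19 to 1.70), squares hyperplasia over GNPs (0.960 to 1.21), and the line marks equal numbers. The blocks with the fewest GNP summits have the highest tumor ratios.

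Summits were counted in windows of 1 Mb and tested with limma on log2(summits + 0.5). Of 1677 windows tested, 157 (9.36%) passed an adjusted p of 0.05, of which 93 were higher and 64 lower in tumors. On chromosome 6, 57 of 101 windows were called higher and 0 lower, 99 had a fitted value above 0, and the median log2 fold change was 0.44, against −0.01 over all windows. A separate test of the 1576 windows of the other chromosomes called 67 (4.25%), 26 higher and 41 lower, so that the split of higher and lower calls turns round without chromosome 6. Ranking the summits after removal of chromosome 6 gave 40 higher and 42 lower. Over all chromosomes, summits with scores of at least 5, scaled to equal totals, gave 35 higher and 15 lower, of which 4 and 15 lay outside chromosome 6. With all summits scaled the calls outside chromosome 6 were 303 higher and 270 lower.

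**Figure D3:**
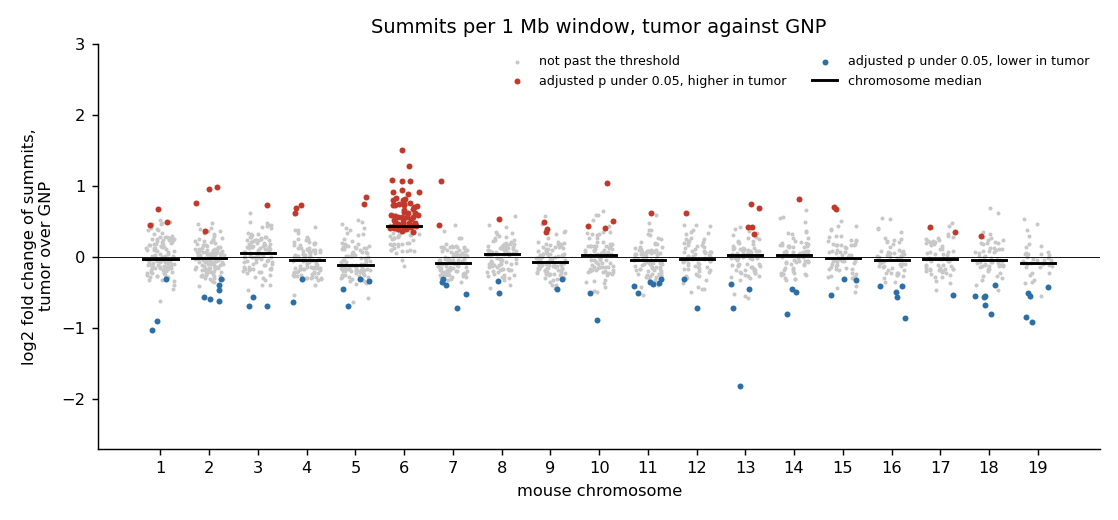
Log2 fold change of summits, tumor over GNP, for 1677 windows of 1 Mb (points), grouped by chromosome and spread sideways at random. Red points were called higher and blue points lower in tumors (limma adjusted p under 0.05), grey points were not called, and black bars are chromosome medians. The median of chromosome 6 is 0.44, and those of the other chromosomes lie between −0.11 and 0.06.

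The 9 windows of chromosome 6 with the smallest p were all higher in tumors. The window at 6 to 7 Mb (chr6:6000001-7000000) held 25, 30 and 24 summits in tumors, against 9, 6 and 13 in GNPs (log2 fold change 1.50, SE 0.21, limma adjusted p = 6.47e-06). It holds Dlx6, a homeobox factor of forebrain interneurons, with 8 summits over the 6 tumor libraries and 0 over the 6 GNP libraries, and Slc25a13, a mitochondrial aspartate-glutamate carrier, with 26 and 11. The window at 128 to 129 Mb held 64, 70 and 65 summits in tumors, against 42, 42 and 37 in GNPs (0.71, SE 0.10, limma adjusted p = 6.47e-06). The gene with the most of them was the tetraspanin gene Tspan9 (84 over the tumor libraries and 50 over the GNP libraries). The window at 114 to 115 Mb held Slc6a11, a GABA transporter, with 27 summits over the tumor libraries and 10 over the GNP libraries. In the window at 94 to 95 Mb, Lrig1, a negative regulator of epidermal growth factor receptors, had 41 and 21. The remaining 5 windows began at 5, 31, 65, 134 and 147 Mb. Within none of these 9, which were chosen by p, did a tumor preparation overlap a GNP preparation. All tumor preparations lay above all GNP preparations in 76 of the 101 windows of chromosome 6. On the other chromosomes this number ran from 1 of 42 windows (chromosome 19) to 19 of 121 (chromosome 1). With all summits scaled, the fitted values of the windows at 128 and 114 Mb turned to −0.09 and −0.25 (limma adjusted p = 0.555 and 0.207).

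Away from chromosome 6, the window with the smallest p lay at Gli3. Gli3 encodes a zinc-finger factor of the SHH pathway that is processed to a repressor when the ligand is absent. The window (chr13:15000001-16000000) held 3, 4 and 4 summits in the tumor preparations, against 17, 9 and 18 in the GNP preparations. The groups did not overlap, and hyperplasia had 11, 14 and 16. The log2 fold change was −1.81 (SE 0.26, limma adjusted p = 1.22e-05 without chromosome 6), and the call held in all 17 alternatives in which the window could be tested. Of these summits, 11 over the 6 tumor libraries and 24 over the 6 GNP libraries were nearest to Gli3 itself (chr13:15463723-15730026). The others had no gene within 100 kb, and numbered 0 in tumors and 20 in GNPs. By gene, Gli3 had 3, 4 and 4 summits in tumors and 10, 4 and 10 in GNPs and did not pass (log2 fold change −0.94, limma adjusted p = 0.256).

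Other windows with fewer tumor summits held Pax2, Slc17a6, Syt1, Nckap5 and Map3k13. The window at 44 to 45 Mb of chromosome 19 held 24, 24 and 18 summits in tumors, against 43, 40 and 42 in GNPs (−0.92, SE 0.13, limma adjusted p = 1.22e-05). Its genes include Pax2, a paired-box factor of cerebellar interneuron precursors (2 summits over the tumor libraries and 11 over the GNP libraries), and Scd2, a fatty acid desaturase (15 and 29). The window at 51 to 52 Mb of chromosome 7 held 21, 28 and 19 summits in tumors and 35, 37 and 40 in GNPs (−0.72, SE 0.14, limma adjusted p = 0.00177). It contains Slc17a6, a vesicular glutamate transporter, at 20 and 33 summits over 6 libraries each, and a stretch with no gene within 100 kb, at 3 and 25. Both groups of preparations stood clear of each other in these windows. At 109 to 110 Mb of chromosome 10, 10, 16 and 16 tumor summits stood against 23, 24 and 31 GNP summits (−0.89, SE 0.18, limma adjusted p = 0.00215). Summits with no gene within 100 kb numbered 12 over the tumor libraries there and 37 over the GNP libraries, while Nav3 had 22 and 29 and the synaptic calcium sensor gene Syt1 had 8 and 12. With all summits scaled the value of this window was 0.17 (limma adjusted p = 0.395). At 126 to 127 Mb of chromosome 1, around Nckap5, 12, 10 and 14 tumor summits stood against 27, 28 and 20 GNP summits (−1.03, SE 0.19, limma adjusted p = 0.00124). The window of Map3k13, a kinase of the stress-activated pathway of axons, at 21 to 22 Mb of chromosome 16, had a log2 fold change of −0.56 (SE 0.11, limma adjusted p = 0.00215), and windows at 17 to 18 Mb of chromosome 16 and 98 to 99 Mb of chromosome 15 had −0.49 and −0.54.

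Windows with more tumor summits held Adra1b, Jun, Tshz3 and Pdzd2. At 43 to 44 Mb of chromosome 11 there were 44, 39 and 50 summits in tumors, against 26, 29 and 31 in GNPs (0.62, SE 0.12, limma adjusted p = 0.00177). Adra1b, the alpha-1B adrenergic receptor gene, accounted for 35 of them over the tumor libraries and 10 over the GNP libraries. At 95 to 96 Mb of chromosome 4 there were 37, 33 and 44 summits in tumors, against 23, 26 and 21 in GNPs (0.69, SE 0.13, limma adjusted p = 0.00177). Jun, a subunit of the AP-1 factor that responds to growth signals, had 47 summits over the tumor libraries there and 23 over the GNP libraries. Tumor and GNP preparations did not overlap in either window. Hyperplasia had 42, 42 and 37 summits in the window of Adra1b and 31, 38 and 38 in that of Jun, nearer to tumors than to GNPs. The window of Tshz3, a zinc-finger homeobox gene, at 36 to 37 Mb of chromosome 7 had 27, 20 and 24 summits in tumors and 18, 9 and 8 in GNPs (1.07, SE 0.21, limma adjusted p = 0.00208). Of these, 13 over the tumor libraries and 4 over the GNP libraries were nearest to Tshz3, and 42 and 22 had no gene within 100 kb. The window of Pdzd2 at 12 to 13 Mb of chromosome 15 had 31, 32 and 34 in tumors and 20, 21 and 19 in GNPs (0.68, SE 0.13, limma adjusted p = 0.00197). Hyperplasia had 23, 18 and 16 in the window of Tshz3 and 34, 29 and 32 in that of Pdzd2, again nearer to tumors.

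Few single genes passed the test over all genes. Each top summit was given to its nearest protein-coding gene within 100 kb, and of 8595 genes that averaged 2 or more summits, 16 (0.186%) passed, 10 higher and 6 lower in tumors. At an unadjusted p under 0.05 there were 1267. Without chromosome 6, 12 of 8107 passed (0.148%), 6 in each direction. The number was sensitive to the selection of summits: all summits, scaled to equal totals, gave 237 higher and 77 lower, with the median of all genes shifted by −0.15, and scores of at least 5 gave 1 and 3. Leaving out the second GNP preparation left 1 gene. Identical counts in all preparations of tumors or of GNPs were present in 10 of the 16 genes and in 19.9% of all tested genes.

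The 6 genes that fell included Agbl4, Lrrc4c and Grip1, which have roles in neurons. Agbl4 (chr4:110397649-111664324), a carboxypeptidase that trims glutamates from tubulin, had 2, 1 and 3 summits in the tumor preparations and 17, 13 and 16 in the GNP preparations (fold change −2.74 on the log2 scale, SE 0.30, limma adjusted p = 0.0213). Lrrc4c (chr2:96318169-97631672), an adhesion molecule that binds netrin-G at synapses, had 2, 2 and 1 in tumors and 8, 10 and 10 in GNPs (−2.21, SE 0.25, limma adjusted p = 0.0283). Grip1 (chr10:119453238-120087267), a scaffold of glutamate receptors, had 11, 11 and 12 in tumors and 18, 19 and 19 in GNPs (−0.70, SE 0.08, limma adjusted p = 0.0303). No tumor preparation overlapped a GNP preparation at these genes. With the 15000 highest summits the fitted value of Grip1 turned to 0.19. The other genes that fell were Sugct, Grhpr and the kinase gene Sik1, the last with 7 summits in every tumor preparation and 12 in every GNP preparation. Hyperplasia lay between tumors and GNPs or at the GNP level for these genes, with 11, 11 and 14 summits at Agbl4 and 5, 7 and 8 at Lrrc4c.

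Of the genes that rose, 4 lie on chromosome 6: Add2, Foxp1, Lsm8 and Chst13. Add2 (chr6:86028681-86124409), a component of the membrane skeleton, had 14, 12 and 16 summits in tumors and 3, 4 and 4 in GNPs (1.80, SE 0.22, limma adjusted p = 0.0342). Foxp1 (chr6:98925342-99522746), a forkhead repressor active in neuron development, had 34, 38 and 38 in tumors and 20, 23 and 24 in GNPs (0.71, SE 0.08, limma adjusted p = 0.0304). Elsewhere, Ptprn2 (chr12:116485695-117278167), a phosphatase-like protein of secretory vesicles, had 38, 41 and 36 in tumors and 23, 20 and 21 in GNPs (0.83, SE 0.08, limma adjusted p = 0.0154). All preparations of tumors lay above those of GNPs at these genes. Hyperplasia had 9, 5 and 6 summits at Add2 and 30, 28 and 32 at Ptprn2, between GNPs and tumors. Cenpu, a centromere protein, had 5, 6 and 5 summits in tumors and 2 in every GNP preparation. Slc38a11, a member of an amino acid transporter family, was listed at 0 in every GNP preparation. It had 3, 3 and 4 summits in tumors (limma adjusted p = 0.00637). Dnah3, an axonemal dynein, was likewise at 0 in GNPs and had 2, 3 and 1 in tumors (limma adjusted p = 0.0342). In tumors and GNPs alone, Slc38a11 and Dnah3 fell short of the mean of 2 summits required for testing. Both entered the test through summits in hyperplasia, so that their summits were not confined to tumors. Nod2, a sensor of bacterial cell walls, rose as well. With all summits scaled, the fitted values of Nod2 and Sugct were −0.42 and 0.04, opposite in sign to those of the top summits.

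**Figure D4:**
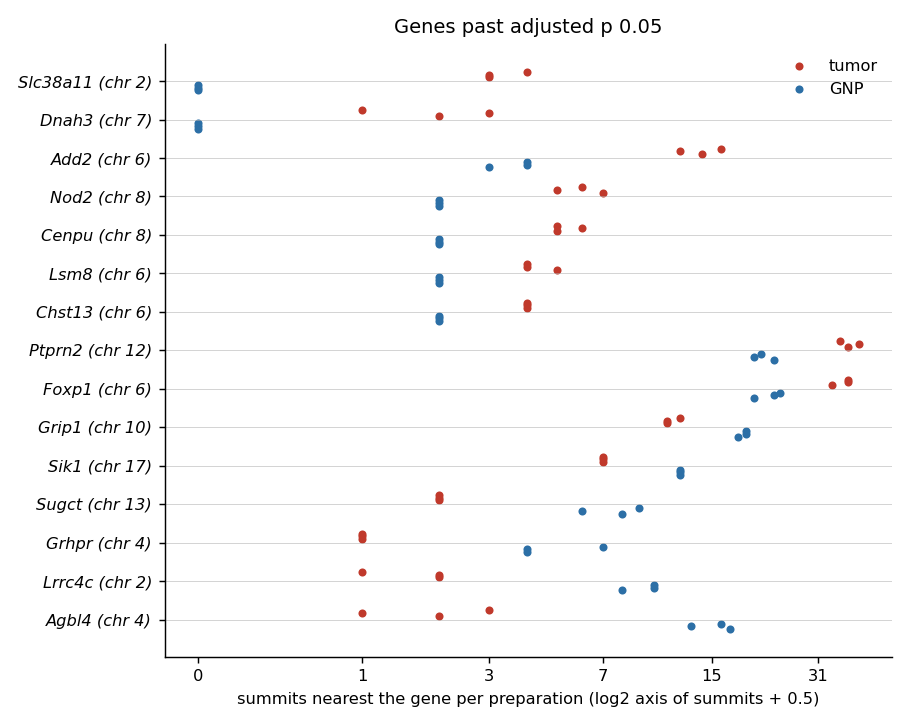
Summits nearest to each of 15 of the 16 genes that passed an adjusted p of 0.05 (limma), per preparation, on a log2 axis of summits + 0.5, ordered by fold change. Red points are the 3 tumor preparations, drawn above the 3 GNP preparations in blue, with the chromosome in brackets. Agbl4 has 1 to 3 summits in tumors and 13 to 17 in GNPs, and Ptprn2 has 36 to 41 and 20 to 23.

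The SHH pathway drives GNP division, and its genes were examined by role. None of the 375 distinct genes of the 20 lists examined was among the 16 that passed over all genes (288 were tested, against 0.186% called overall). The ligand gene Shh had 4, 3 and 3 summits in tumors and 6, 6 and 4 in GNPs (log2 fold change −0.60, limma adjusted p = 0.219). The receptor gene Ptch1 had 7, 9 and 9 and 10, 10 and 8 (−0.16, limma adjusted p = 0.715), with overlapping groups. Smo, the transducer that Ptch1 holds in check, lies on chromosome 6 and had 7, 6 and 6 in tumors and 3, 3 and 4 in GNPs (0.84, limma adjusted p = 0.107). Among the transcription factors, the activator gene Gli2 had 42, 44 and 38 in tumors and 42, 48 and 50 in GNPs, and Gli1, with 1 or 2 summits in each tumor and GNP preparation, was not tested. Of the 14 pathway genes tested, 4 had a higher and 10 a lower fitted value in tumors, with a median of −0.12 against 0.00 for all genes. With the 15000 highest summits 7 of 13 were higher and the median equalled that of all genes, and with 40000 it lay 0.02 below. With all summits scaled the list median lay 0.21 below that of all genes, with 3 of 15 members above it. It lay 0.15 below with chromosome 6 removed before ranking and 0.05 below with scores of at least 5.

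Granule cell factors differed in direction among themselves. Atoh1, the factor that specifies granule progenitors, lies on chromosome 6 and had 8, 10 and 7 summits in tumors and 6, 5 and 5 in GNPs (0.59, limma adjusted p = 0.150). Meis2, a homeobox factor of the progenitors, had 1, 0 and 1 in tumors and 8, 4 and 7 in GNPs (−2.66, limma adjusted p = 0.0934). Pax6, a paired-box factor of the granule lineage, had 12, 9 and 9 in tumors and 15, 15 and 18 in GNPs (−0.66, limma adjusted p = 0.195). Tumors and GNPs did not overlap at these 3 genes, but none passed over all genes. Of 17 progenitor identity genes tested, 10 had higher and 7 lower fitted values (median 0.06). With all summits scaled 3 of 16 lay above the median of all genes, and the list median was 0.16 below it. It was also 0.06 below with the 15000 highest summits, 0.08 below with 40000 and 0.03 below with scores of at least 5. Of 16 genes of granule neuron differentiation, 4 had higher and 11 lower values, with a median of −0.10. The list median stayed between 0.06 and 0.23 below that of all genes in the top 15000, 30000 or 40000 summits, in all summits, in scores of at least 5 and after removal of chromosome 6. Neurod2, a neurogenic factor, had 4, 3 and 3 in tumors and 7, 8 and 8 in GNPs (−1.10, limma adjusted p = 0.0528), just outside the threshold.

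Neural stem and progenitor, NFI and WNT genes had more higher than lower fitted values in tumors, as did several other lists. Most list medians changed side with the summits kept: over the 6 choices, 2 of the 20 lists (astrocyte and Bergmann glia, and Purkinje cell and interneuron genes) lay above all genes in each, 2 (granule neuron differentiation and medulloblastoma genes) lay below in each, and 16 did neither. At their closest to all genes, the astrocyte list lay only 0.0006 above, the Purkinje list 0.008 above and the medulloblastoma list 0.003 below. For granule neuron differentiation the smallest margin was 0.06 below. Of 14 neural stem and progenitor genes tested, 11 were higher and 3 lower, with a median of 0.34, and with all summits scaled the median lay 0.08 below that of all genes. Sox1, a factor of neural progenitors, had 9, 7 and 7 in tumors and 3, 4 and 3 in GNPs (1.09, limma adjusted p = 0.0574). Of the 4 NFI genes 3 were higher, with a median of 0.26 that became 0.26 below all genes with all summits scaled. Nfib had 36, 33 and 32 in tumors and 27, 31 and 23 in GNPs, and Nfic 15, 17 and 24 and 11, 14 and 14, neither past the threshold. Of 21 WNT pathway genes 14 were higher and 7 lower (median 0.16, and 0.13 below all genes with all summits scaled). Tcf7l1, a repressor of the pathway on chromosome 6, had 16, 17 and 19 in tumors and 13, 11 and 12 in GNPs, and Tcf7l2, its relative, had 9, 8 and 8 in tumors and 14, 13 and 15 in GNPs (limma adjusted p = 0.0885 and 0.0827, neither past the threshold). Smad3, a signal transducer of TGF-beta, had 15, 19 and 19 in tumors and 10, 13 and 10 in GNPs (limma adjusted p = 0.104). Of 17 genes of the BMP and TGF-beta pathways 11 were higher and 6 lower (median 0.08, and 0.02 below all genes with scores of at least 5).

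The other gene lists were mixed. Chromatin regulators had a median of 0.28 with, and −0.00 without, the 3 tested members on chromosome 6, and with all summits scaled it lay 0.03 below all genes. Tet2, which oxidises methylated cytosine, had 6, 3 and 4 summits in tumors and 1, 0 and 1 in GNPs (2.17, limma adjusted p = 0.105). Cell adhesion genes had 14 higher and 10 lower values (median 0.23), axon guidance genes 11 and 15, glutamate and GABA receptor genes 11 and 10, cell cycle genes 7 and 10, and medulloblastoma genes 4 and 12. The cell adhesion median lay 0.10 below all genes with the 15000 highest summits. With all summits scaled it lay 0.78 above, with 24 of 25 members higher. The receptor median lay 0.32 above with all summits scaled and 0.14 below with chromosome 6 removed before ranking. Among potassium channel genes 6 were higher and 12 lower (median −0.11, which turned above all genes with the 15000 highest summits and with all summits scaled). Sema6a, an axon guidance ligand that acts in granule cell migration, had 20, 21 and 22 in tumors and 14, 12 and 12 in GNPs (0.71, limma adjusted p = 0.0528). Foxp2, a forkhead factor listed among Purkinje cell genes and on chromosome 6, had 13, 15 and 13 in tumors and 7, 4 and 6 in GNPs (1.23, limma adjusted p = 0.0629).

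Markers of other cells in the cerebellum had summits in both stages. Summits near a gene do not show that it is expressed. Summed over each list, astrocyte and Bergmann glia genes had 39 to 53 summits in tumor preparations and 40 to 54 in GNP preparations. Oligodendrocyte genes had 41 to 42 and 37 to 51, microglia and macrophage genes 8 to 10 and 6 to 7, vascular and meningeal genes 42 to 53 and 38 to 52, Purkinje cell and interneuron genes 81 to 93 and 75 to 87, and genes of non-neural tissues 9 to 10 and 6 to 13. Only in the sum of the microglial list, which rests on few summits, did tumor and GNP preparations not overlap. In that list Aif1, Cx3cr1, Trem2 and Cd68 were at 0 in all tumor and GNP libraries, as were Aqp4 and S100b of the astrocyte list, Mag of the oligodendrocyte list, Rgs5 and Col3a1 of the vascular list, and Pcp2 and Car8 of the Purkinje list. Of the 36 marker genes tested in these 6 lists none passed over all genes, and their part in the results above was not tested.

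The top summits were merged into regions, and 42013 of these were shared by 3 or more of the 18 libraries. Gained regions were those hit by 5 or 6 tumor libraries and by 0 or 1 GNP library, and lost regions the reverse. By this rule 954 regions (2.27%) were gained and 1054 (2.51%) lost, and 7995 held a summit in all 12 libraries. Under the strictest form, all 6 libraries against none, 170 were gained and 152 lost. On chromosome 6, 142 regions were gained (5.74%) and 25 lost (1.01%), and without that chromosome 812 were gained and 1029 lost. The rule asks for agreement between libraries and is not a test. Read in the other stage's complete lists, few of these regions were without a summit: 31 gained regions (3.25%) had none of any rank in the GNP lists and 405 (42.5%) had one in at least 5 of the 6. For lost regions the numbers in the tumor lists were 36 (3.42%) and 245 (23.2%). The complete lists differ in length between libraries, so that these shares are set by list length as well.

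Hyperplasia libraries hit part of the gained and part of the lost regions. Among the 30000 highest summits of the 6 hyperplasia libraries, 33.2% of the gained regions were hit in 5 or 6 libraries, 47.9% in 2 to 4 and 18.9% in 0 or 1. Of the lost regions 10.2% were hit in 5 or 6, 39.2% in 2 to 4 and 50.6% in 0 or 1. Over all regions the shares were 37.3%, 37.5% and 25.3%. The difference was not tested, since regions share their libraries.

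**Figure D5:**
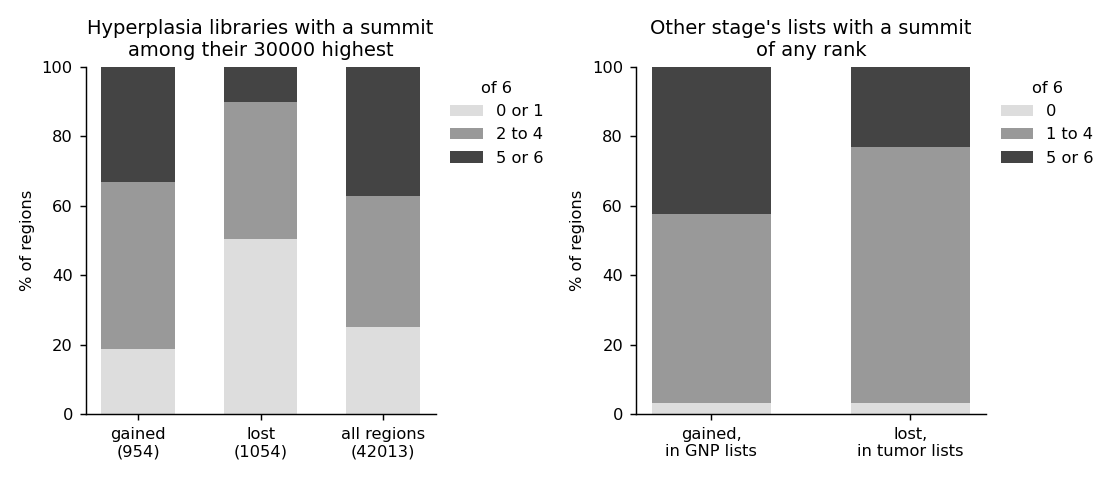
Left, percentage of the gained (954), lost (1054) and all (42013) regions that were hit in 0 or 1, 2 to 4, or 5 or 6 of the 6 hyperplasia libraries. Right, percentage of the gained regions with a summit of any rank in 0, 1 to 4, or 5 or 6 of the GNP lists, and the same for lost regions in the tumor lists. Grey shades run from few libraries (light) to many (dark). Lost regions were hit in 5 or 6 hyperplasia libraries in 10.2% of cases and gained regions in 33.2%.

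The best-ranked gained regions outside chromosome 6 lay inside or near genes of several kinds. A region inside Nhej1 (chr1:75040478-75040854), a factor of DNA end joining, had tumor ranks from 1682 to 6306 within the 6 tumor lists, and its best rank in a GNP list was 32617. A region 14337 bp from Crabp1 (chr9:54750178-54750645), a retinoic acid binding protein, had ranks within 11630 in all tumor lists and a lower-ranked summit in all 6 GNP lists. Others lay inside Fbxo32 (chr15:58194202-58194725), a ubiquitin ligase subunit, Adarb2 (chr13:8538263-8538935), an RNA editing family member, and Pde4dip (chr3:97854574-97855145), a centrosome and Golgi protein. On chromosome 6 a region inside the hexokinase gene Hk2 (chr6:82736836-82737416) was among the best, and Hk2 had 3 gained regions in all. Of the best-ranked lost regions, 4 lay in windows or genes named above. One lay 384634 bp from the nearest gene in the window of Gli3 (chr13:15078650-15079528), one inside Nckap5 (chr1:126484645-126485071), one inside Agbl4 (chr4:111597393-111597665) and one in the window of Slc17a6 (chr7:51307811-51308072). A region inside Snd1 (chr6:28867959-28868215), lost on the chromosome with most gains, had ranks from 2989 to 9350 in the GNP lists and no summit of any rank in a tumor list.

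Several listed genes had more than 1 changed region. Slit3, a repulsive axon guidance ligand, held 4 gained regions of 35, all 4 inside the gene, and Robo1, a receptor for such ligands, 3 lost ones of 16. By summits neither gene passed (log2 fold change 0.15 for Slit3 and −0.41 for Robo1, limma adjusted p = 0.419 and 0.286). Potassium channel genes had 8 lost and 0 gained regions of 139, among them regions at Kcnc1, Kcnd3, Kcnh1 (2), Kcnip1, Kcnj6 and Kcnma1, that is 5.76% lost, and 2.33% were lost among all regions with a nearest gene. Granule progenitor identity genes had 5 lost of 90 (5.56%), among them 2 inside Meis2 and 1 at the end of Nhlh2, a bHLH factor of early neurons, and 2 gained. Granule neuron differentiation genes had 7 lost and 4 gained of 138, with both kinds at Nfasc and Grm4. Cell cycle genes had 2 gained of 75 (2.67%, near the 2.27% of all regions with a nearest gene) and 0 lost, with 1 inside Cdk6 and 1 at the end of Ccnd2 (chr6:127152244-127152740), the cyclin that carries granule progenitors into S phase. These shares were not tested.

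Few of the changed regions lay at promoters. Gene ends, within 1 kb, held 6.39% of the gained and 14.8% of the lost regions, against 22.6% of all regions and 31.7% of those in all 12 libraries. Of the 31396 autosomal promoters examined, 41 overlapped a gained region, 157 a lost one and 3150 a region in all 12 libraries. Each promoter was searched on both strands for the full NFI palindrome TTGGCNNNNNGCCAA, for a relaxed palindrome TGGCNNNNNGCCA, which every full one contains, and for a single arm TTGGCA. The relaxed palindrome was in 1 promoter over a gained region (2.44%), in 0 over a lost region, in 1.14% of those over regions of all 12 libraries and in 0.825% of all promoters. The single arm was in 9.76%, 10.8%, 13.4% and 14.1%, and the full palindrome in 0, 0, 1 and 12 promoters. A match or its absence in this stretch says nothing of NFI binding elsewhere in the region.

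The following stretches are the 250 bases before the start of genes whose promoters overlap changed regions, 5′ to 3′ on the strand of the gene (RefSeq, assembly GRCm38.p6), with motif letters in capitals. Khdrbs2, an RNA-binding protein of neurons (chr1:32172472-32172721, plus strand), and Acbd5, a peroxisomal protein (chr2:23068822-23069071, plus), are the best-ranked over lost regions, each hit in 1 tumor and 6 GNP libraries, and Gpd1l (chr9:114933988-114934237, minus) is the best-ranked over a gained region, hit in 6 tumor and 1 GNP libraries. Nhlh2 (chr3:102009895-102010144, plus; lost, 0 and 5 libraries), Tkt, a transketolase (chr14:30548881-30549130, plus; gained, 5 and 1), and Gstm7 (chr3:107931818-107932067, minus; 6 and 6 libraries) were added after their values were seen. Tkt holds the relaxed palindrome, but its stretch overlaps the gained region by 12 bases and the palindrome lies 173 bases outside that region. Gstm7 is the promoter with the full palindrome among those hit in all 12 libraries, and its palindrome lies inside the region.
Khdrbs2: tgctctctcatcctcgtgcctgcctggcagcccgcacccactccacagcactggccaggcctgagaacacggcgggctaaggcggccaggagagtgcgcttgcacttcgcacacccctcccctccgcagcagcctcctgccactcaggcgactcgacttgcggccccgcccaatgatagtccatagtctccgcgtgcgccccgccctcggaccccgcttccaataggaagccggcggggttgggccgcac
Acbd5: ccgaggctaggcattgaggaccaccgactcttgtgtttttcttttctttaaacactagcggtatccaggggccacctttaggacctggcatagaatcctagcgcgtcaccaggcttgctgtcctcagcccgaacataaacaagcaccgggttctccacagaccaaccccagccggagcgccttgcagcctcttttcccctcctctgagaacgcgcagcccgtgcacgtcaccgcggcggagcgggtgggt
Nhlh2: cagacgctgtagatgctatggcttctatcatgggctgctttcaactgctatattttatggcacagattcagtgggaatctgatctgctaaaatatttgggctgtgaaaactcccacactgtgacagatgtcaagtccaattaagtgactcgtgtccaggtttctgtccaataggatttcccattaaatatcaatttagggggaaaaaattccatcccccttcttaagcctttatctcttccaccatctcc
Gpd1l: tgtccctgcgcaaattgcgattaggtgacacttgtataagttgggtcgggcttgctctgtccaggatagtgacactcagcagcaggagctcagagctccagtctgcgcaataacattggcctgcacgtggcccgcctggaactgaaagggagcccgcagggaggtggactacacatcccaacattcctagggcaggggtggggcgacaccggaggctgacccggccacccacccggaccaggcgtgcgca
Tkt: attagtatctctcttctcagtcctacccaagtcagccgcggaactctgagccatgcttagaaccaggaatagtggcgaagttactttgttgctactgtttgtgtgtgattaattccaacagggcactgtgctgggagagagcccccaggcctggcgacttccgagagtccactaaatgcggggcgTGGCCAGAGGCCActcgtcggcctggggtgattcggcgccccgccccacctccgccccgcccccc
Gstm7: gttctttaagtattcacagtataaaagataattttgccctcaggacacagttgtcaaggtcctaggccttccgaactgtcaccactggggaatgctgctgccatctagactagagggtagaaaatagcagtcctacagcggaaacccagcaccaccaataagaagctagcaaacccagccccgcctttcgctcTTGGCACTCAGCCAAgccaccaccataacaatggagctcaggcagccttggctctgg
No capitals appear in the Khdrbs2, Acbd5, Gpd1l and Nhlh2 stretches, which hold none of the 3 motifs.

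Tumor summits lay near either end of a gene in smaller shares than GNP summits, with the preparations narrowly apart. Of the top summits, 20.6%, 23.7% and 24.6% lay within 1 kb of a gene end in the tumor preparations, against 24.7%, 26.5% and 27.3% in the GNP preparations. The highest tumor value, 24.6%, lay just below the lowest GNP value, 24.7% (difference of the means −3.20 percentage points, exact permutation p = 0.1, two-sided, the smallest possible). Without chromosome 6 the difference was −3.03 and the exact permutation p 0.2, with overlapping preparations. For start sites alone, within 1 kb, the tumor shares were 20.10%, 23.11% and 24.11%. Those of GNPs were 24.07%, 25.81% and 26.65%, so that the preparations overlapped (exact permutation p = 0.2). Further inside genes lay 42.2 ± 0.713% of tumor and 40.3 ± 0.839% of GNP summits (SD, n = 3 each, exact permutation p = 0.1). The tumor lists were also longer, by 0.65 on the log2 scale of summit number (exact permutation p = 0.1), and whether list length bears on these shares was not tested. No difference in tumor effect between NFIA and NFIB libraries passed limma's test of the interaction over 8595 genes (0 called, 336 at an unadjusted p under 0.05, smallest adjusted p 0.0686). The 18 libraries entered it singly, without pairing the NFIA and NFIB libraries of a preparation. The targets were taken from the titles, and 4 of the 12 deposited names give the other target, so that this test rests on titles that the names go against.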

How the data were processed

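The submitters' processing notes name Bowtie2, MACS2 and the build mm10, without versions. Settings, and whether a control library was used, are not given in the sources used here. Each deposited list has 1 row per summit of 1 library, and its score is a −log10 p-value computed by the authors' caller. Sites below a score of about 2 are not listed, and no reads or coverage were used, so that depth is unknown and no counting interval was computed.

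The sample titles gave stage, target and preparation. In 4 of the 12 tumor and GNP libraries the deposited name gives the other target, and in 6 of the 8 whose title has a replicate number it gives another number. Titles were followed. Stage sums and the region rule do not depend on which libraries form a preparation, but SDs and tests do. Tumor preparations have 3 title dates and GNP preparations 2, with 0 in common.

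The members, gene lists and tests were chosen with earlier results of these data known. The 30000 highest-scoring summits on the 19 autosomes were kept per library, with ties broken at random (seed 1). Each was assigned to the closest of 20665 spans of protein-coding genes of the RefSeq table (GRCm38.p6, the same build as mm10) within 100 kb, and to 1 Mb windows. Genes averaging 2 or more and windows averaging 10 or more summits in the 9 preparations of the 3 stages entered a limma fit (version 3.58.1 under R 4.3.3, empirical Bayes with a trend) of log2(summits + 0.5), with a term for stage alone. Benjamini-Hochberg adjusted p-values were called under 0.05. Because of the added 0.5, fold changes of genes with few summits are understated, and the counts are small whole numbers. Regions came from summits widened by 100 bp on each side and merged. Exact two-sided permutation of the preparations was the test for shares. Both limma tests and the region merge were tested on simulated data.

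Named in the text are the genes past the threshold; the listed genes of the SHH, granule lineage and NFI families; members with the smallest p of other lists; up to 12 called windows by p, with and without chromosome 6; the best-ranked gained and lost regions; and promoters over them. A few items, among them 1 called gene, are not reported here. Genes and windows named by p were chosen for their difference, so that a lack of overlap in them is no further support. All 375 list genes matched by symbol. Coordinates are 1-based. Python 3.11.15, numpy 2.4.6, pandas 2.3.3 and matplotlib 3.10.9 were used. Alternatives changed the number or score of summits, ties, the target, filters, pseudocount, window size, chromosome 6 and each preparation.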

Additional observations from a re-analysis of the deposited data

Results flagged for a closer look

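Chromosome X was outside all comparisons. In the complete lists it held 3.67% of the summits of the NFIA library of the first tumor preparation and 2.84% of those of the second, above the highest share of a GNP library, 1.70%. The other 4 tumor libraries held 1.43% to 1.62%. Among summits scored at least as high as the 30000th autosomal one, the first 2 libraries had 14.9 and 16.2 chromosome X summits per 1000 autosomal ones, inside the GNP range of 14.8 to 17.8. Those 2 lists were the longest of the tumor libraries, with 290139 and 385466 summits.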

How the results depend on the processing

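The chromosome 6 ratio ran from 1.32 to 1.43 over the 11 alternatives, and 1.34 to 1.36 when each tumor or GNP preparation was left out. The gene-end difference kept its sign in all of its alternatives, from −5.47 to −2.03 (−4.02 to −2.03 leaving out preparations). Depth is unknown, and 3 preparations a side limit the exact tests.

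Called genes numbered 124 with the 15000 highest summits, 129 with 40000, 314 with all summits, 4 with scores of at least 5, 3 with chromosome 6 removed before ranking, 62 with NFIB libraries alone, 44 with a pseudocount of 2, 110 with a mean of at least 5 summits, 129 with no filter, 1 with list length as a covariate and 26 with summits inside genes alone, and 1 to 25 leaving out a preparation (1 without the second GNP preparation). Called windows numbered 647 with all summits (86 of the 157 among them), 50 with scores of at least 5 (41), 82 with chromosome 6 removed before ranking (64), 16 with NFIA alone, 74 with NFIB alone, 67 once chromosome 6 was left out and 74 with list length as a covariate (72), and 98 to 183 leaving out a preparation. Those called higher on chromosome 6 numbered 31 with scores of at least 5, 12 with NFIA alone, 25 with NFIB alone and 33 with the covariate, and 42 to 61 leaving out a preparation. Those called outside it numbered 100 in the joint test, 573, 19, 4, 49, 67 and 41 with all summits, scores of at least 5, NFIA alone, NFIB alone, chromosome 6 left out and the covariate, and 52 to 122 leaving out a preparation. Gained and lost regions numbered 588 and 624 with the 15000 highest summits, 1627 and 1639 with all summits, and 170 and 152 under the 6-to-0 rule. Leaving out a preparation gave 1410 to 2227 gained and 1689 to 2138 lost, where the rule asks for fewer libraries. Apart from these constructions (fewer summits, libraries or features), the cause was not tested. With all summits the log2 fold changes of Sugct and Nod2 were 0.043 and −0.42, and with 15000 that of Grip1 was 0.19, each reversed. The other called genes kept their sign in every alternative, but many calls were lost. Sugct kept its call in 17 of 24 alternatives, Slc38a11 in 16 of 21, Cenpu in 14 of 21, Chst13 in 13 of 20 and Sik1 in 14 of 23. Agbl4 and Ptprn2 kept theirs in 14 of 24, Nod2 in 10 of 23, and Grip1 and Lrrc4c in 10 of 24. Grhpr, Foxp1 and Add2 kept theirs in 9 of 22, Dnah3 in 7 of 18 and Lsm8 in 6 of 18. Of the windows named in the text, those at 128 and 114 Mb of chromosome 6 and 109 Mb of chromosome 10 changed sign with all summits, to −0.087, −0.25 and 0.17.

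No paired analysis was possible because tumor and GNP titles share only the replicate number 2.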
